A study of Mus musculus with 42 samples.

Results

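The mitochondrial carrier family, named Slc25, was followed in mouse liver during the first weeks of a high-fat diet (HFD). Members were taken as every gene whose symbol starts with Slc25a and that had at least 1 array probe set assigned to a single gene symbol, with the brightest probe set standing for a gene that had several. This gave 43 carrier genes among 17989 genes tested. Family genes with no such probe set were not analysed here, among them Slc25a25, Slc25a32, Slc25a39 and the uncoupling protein Ucp2, which also belonged to the rule.

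All 42 arrays came from livers of male C3HeB/FeJ mice of wild-type genotype that were housed singly and sampled in the random-fed state. The 18 control arrays were from mice of 15 to 17 weeks that had received a low-fat diet (LFD) for up to 21 days. The HFD groups held 8 arrays each, after 7 days at 15 weeks of age, 14 days at 16 weeks and 21 days at 17 weeks. Whether replicates are separate animals is not stated, and the p-values therefore speak only of the variation among these arrays. Titles of the control and 21-day arrays carry the word reanalysis and those of the 7-day and 14-day arrays do not; if handling differed along with that wording, handling and diet cannot be told apart at 7 and 14 days, whereas both groups of the 21-day comparison carry it.

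Mitochondrial carriers are small proteins of the inner mitochondrial membrane, built from repeated pairs of membrane-spanning helices, that move metabolites, nucleotides, cofactors and ions between the cytosol and the matrix. Most work as exchangers, taking a substrate one way and returning another. In liver they carry acylcarnitines to beta-oxidation, citrate to fatty acid synthesis, reducing equivalents through the malate-aspartate shuttle, ornithine to the urea cycle, and ADP and phosphate to ATP synthase.

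Values are array intensities on the log2 scale, so a difference of 1 is a doubling, and each value belongs to its own probe set. The 95th percentile of 929 olfactory receptor genes, which liver is not known to use, was 2.86 and served as a background level; 36 of the 43 carriers had a mean above it. The 7 that did not were Slc25a2, Slc25a27, Slc25a31, Slc25a36, Slc25a41, Slc25a53 and Slc25a54, and their differences say little about expression. Slc25a14 and Slc25a18 lay close above this level, with means of 2.97 and 3.02, and call for the same caution. Array medians lay between 3.08 and 3.28. The 7 measured hepatocyte markers averaged 11.2 to 11.9 on every array and none of them differed from control in any comparison with control. RNA of pancreatic acinar cells was present to a varying degree in every group: the mean of 10 acinar markers ran from 3.48 to 8.47 in controls, 3.56 to 9.41 at 7 days, 3.50 to 9.26 at 14 days and 3.49 to 6.47 at 21 days.

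The windows upstream of the 3 carriers that rose on HFD are shown first, to place them in the genome. Each is the 250 bases before the annotated start in RefSeq, build GRCm38.p6, read 5′ to 3′ on the strand of the gene. Capitals mark the nuclear receptor element AGGTCA and the GC box GGGCGG, searched on both strands.
Slc25a47: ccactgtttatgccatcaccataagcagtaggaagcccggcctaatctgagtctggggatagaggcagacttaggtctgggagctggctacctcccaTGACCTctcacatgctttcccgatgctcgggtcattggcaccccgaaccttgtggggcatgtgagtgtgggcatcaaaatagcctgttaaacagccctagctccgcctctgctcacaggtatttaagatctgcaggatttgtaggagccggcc
Slc25a20: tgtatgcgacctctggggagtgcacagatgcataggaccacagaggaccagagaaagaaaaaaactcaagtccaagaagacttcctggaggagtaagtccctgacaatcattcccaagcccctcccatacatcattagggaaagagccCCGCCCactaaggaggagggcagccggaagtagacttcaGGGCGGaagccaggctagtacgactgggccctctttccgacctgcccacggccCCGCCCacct
Slc25a30: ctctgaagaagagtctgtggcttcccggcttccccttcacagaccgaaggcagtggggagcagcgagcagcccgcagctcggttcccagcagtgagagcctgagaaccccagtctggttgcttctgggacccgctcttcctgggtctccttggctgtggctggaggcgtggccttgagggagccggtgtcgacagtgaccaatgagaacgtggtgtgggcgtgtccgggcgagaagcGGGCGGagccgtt

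The Slc25a47 window lies at chr12:108850879-108851128 on the plus strand, upstream of the gene, and holds 1 AGGTCA on the opposite strand, 153 to 148 bases before the start, and no GGGCGG. The Slc25a20 window, chr9:108661886-108662135 on the plus strand, holds GGGCGG 3 times, beginning 102, 63 and 10 bases before the start. The Slc25a30 window, chr14:75787038-75787287 on the minus strand, holds GGGCGG 1 time, beginning 13 bases before the start, and 16 CpG dinucleotides. The windows of Slc25a47 and Slc25a20 hold 6 and 8 CpG dinucleotides.

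Across the family, 42 windows of 34 carriers were found. GGGCGG occurred in 69.0% of them, belonging to 23 carriers, and in 32.7% of all 32851 windows of the same length. The median GC content was 57.4% for the carrier windows and 52.4% for all. AGGTCA occurred in windows of 3 carriers, Slc25a34, Slc25a45 and Slc25a47, or 7.14% of the carrier windows against 14.0% of all. The direct repeat of AGGTCA with any 1 base between its copies, the form bound by PPAR alpha with RXR, was in 0 carrier windows and in 0.0335% of all, and TATAAA was in the windows of Slc25a18 and Slc25a21. These matches describe letters in short windows of the reference strain and are not evidence of binding.

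On HFD 3 carriers rose and most of the family lay near control. Slc25a47, a carrier found mainly in hepatocytes, and Slc25a20, the carnitine-acylcarnitine translocase, were higher at each of the 3 times, and Slc25a30, a relative of the uncoupling proteins first described in kidney, was higher at 14 days. No carrier fell. A gene was counted as changed where limma's adjusted p (Benjamini-Hochberg over all 17989 genes) was under 0.05.

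At 7 days 2 of 43 carriers rose, 4.65% of the family, beside 1.16% of all genes; 0 carriers and 0.239% of all genes fell. At 14 days 3 carriers rose, 6.98% beside 0.506% of all genes, and 0 fell beside 0.161%. At 21 days 2 rose, 4.65% beside 0.445% of all genes, and 0 fell beside 0.256%. The mean of the 3 HFD times against control gave Slc25a20, Slc25a30 and Slc25a47 as higher, 6.98% beside 1.36% of all genes, and none as lower beside 0.528%. The 3 comparisons share the same 18 controls, so they are not independent of each other.

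The median carrier lay near control at each time. The median log2 difference of the 43 carriers was 0.06 at 7 days, 0.01 at 14 days and 0.02 at 21 days, and over all genes it was -0.01, -0.00 and 0.01. The median carrier had a standard error of 0.09 on this scale. The 95% limits of the difference lay within 1.5-fold either way for 37 carriers at 7 days, 38 at 14 days and 38 at 21 days.

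Below the adjusted threshold the family held further differences. At 7 days 9 carriers were higher with an unadjusted p under 0.05, 20.9% of the family beside 5.26% of all genes, and 2 were lower, 4.65% beside 4.01%. At 14 days 5 were higher, 11.6% beside 3.16%, and 3 lower, 6.98% beside 2.84%. At 21 days 5 were higher, 11.6% beside 4.15%, and 4 lower, 9.30% beside 2.51%. Over the mean of the 3 times 11 were higher, 25.6% beside 5.18%, and 3 lower, 6.98% beside 3.87%. These counts include the carriers that passed the adjusted test.

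**Figure D1:**
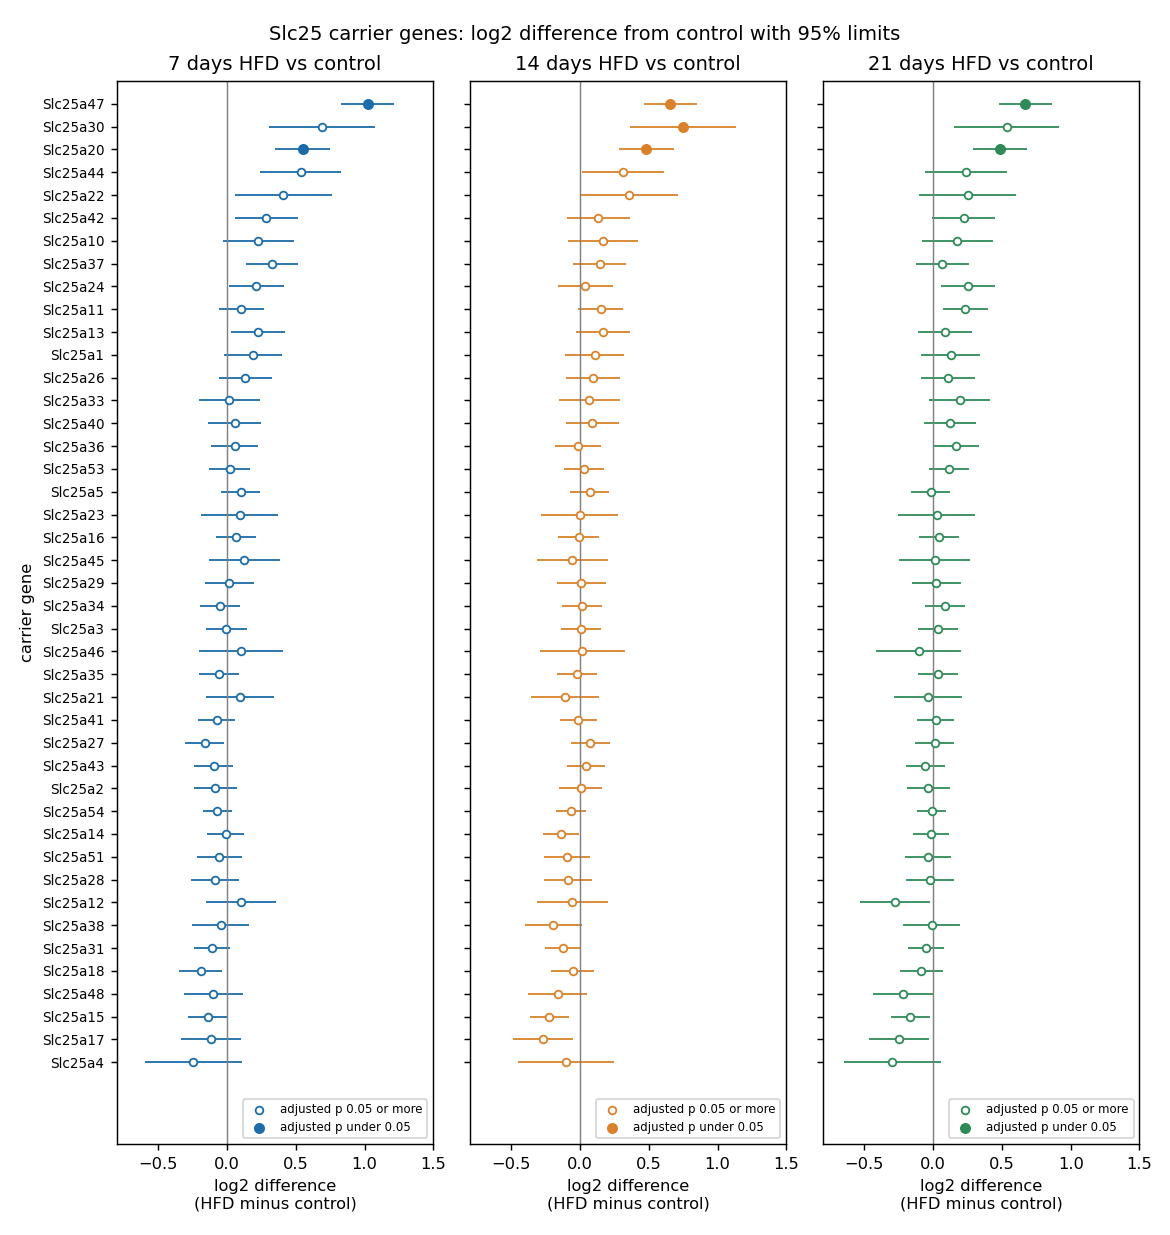
Log2 difference from control (horizontal axis, HFD minus control) of each of the 43 carrier genes (vertical axis) after 7, 14 and 21 days of HFD, with 95% limits as lines; filled points have a limma adjusted p under 0.05. Slc25a47 and Slc25a20 are filled at all 3 times and Slc25a30 at 14 days, while most carriers lie near 0.

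Slc25a47 encodes an orphan carrier of liver whose substrate is still debated, with both uncoupling activity and transport of NAD+ having been proposed. In the 18 controls its lowest, median and highest values were 8.65, 9.14 and 9.59. At 7 days they were 10.07, 10.14 and 10.37, at 14 days 9.54, 9.78 and 10.02, and at 21 days 9.44, 9.83 and 10.01. All 8 arrays of the 7-day group stood above every control; 6 of 8 did so at 14 days and 7 of 8 at 21 days, with the rest inside the upper end of the control range. Complete separation of this kind, every HFD array above every control, occurred for 0.228% of all genes at 7 days, 0.0778% at 14 days and 0.05% at 21 days.

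The means of Slc25a47 were 9.13 ± 0.28 in controls (SD, n = 18), 10.16 ± 0.10 at 7 days, 9.79 ± 0.19 at 14 days and 9.81 ± 0.20 at 21 days (SD, n = 8 each). The gene rose 2.03-fold at 7 days, a log2 difference of 1.02 with a standard error of 0.10 and a limma adjusted p of 2.29e-10. It rose 1.58-fold at 14 days (log2 0.66, adjusted p 1.66e-05) and 1.59-fold at 21 days (log2 0.67, adjusted p 1.26e-05). It passed the test at each time without any 1 of the 42 arrays.

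The later groups were lower than the 7-day group in Slc25a47, by 0.37 at 14 days and 0.35 at 21 days on the log2 scale. These differences had unadjusted p-values of 0.00205 and 0.00300 in limma's test. Neither passed limma's adjustment (0.9998 at 14 days and 0.586 at 21 days), so a decline after day 7 did not pass the test. The lowest 7-day value, 10.07, was above the highest later values, 10.02 and 10.01. How many of all genes separate in this way between HFD times was not counted, so the gap describes these arrays only.

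Slc25a20 exchanges acylcarnitines for free carnitine across the inner membrane, the step that brings long-chain fatty acids to matrix beta-oxidation. Control arrays ran from 7.49 through a median of 8.0 to 8.48. The 7-day arrays ran from 8.20 through 8.59 to 8.82, the 14-day arrays from 7.91 through 8.55 to 8.72, and the 21-day arrays from 8.08 through 8.48 to 8.90. The groups overlapped, with 6, 5 and 4 of 8 arrays above every control at 7, 14 and 21 days, and a single 14-day array, replicate 6, lay below the control mean.

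The means of Slc25a20 were 8.01 ± 0.23 in controls (SD, n = 18), 8.56 ± 0.21 at 7 days, 8.49 ± 0.26 at 14 days and 8.49 ± 0.25 at 21 days (SD, n = 8 each). The rise was 1.46-fold at 7 days (log2 0.55, SE 0.10, limma adjusted p 3.21e-04), 1.40-fold at 14 days (log2 0.48, adjusted p 0.00446) and 1.40-fold at 21 days (log2 0.49, adjusted p 0.00372). Among the 3 HFD times it gave an unadjusted p of 0.801 in limma's F test. With only the HFD arrays numbered 5 to 8, the log2 difference was 0.43 at 7 days (adjusted p 0.176), 0.36 at 14 days (adjusted p 0.450) and 0.44 at 21 days (adjusted p 0.0780). With only the controls numbered 10 to 18 it was 0.40 at 14 days (adjusted p 0.144) and 0.41 at 21 days (adjusted p 0.121), so these calls did not hold there although the direction did.

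Slc25a30 encodes kidney mitochondrial carrier protein 1, which groups with the uncoupling proteins by sequence. Its controls were widely spread, from 4.01 through a median of 4.86 to 6.0. The 7-day arrays ran from 4.88 through 5.68 to 6.13, the 14-day arrays from 5.15 through 5.61 to 6.18, and the 21-day arrays from 4.96 through 5.46 to 5.99. Only 1 array at 7 days, 2 at 14 days and 0 at 21 days lay above every control, but every HFD array lay above the control median. No share of all genes was counted for this, nor for the partial separation of other carriers.

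The means of Slc25a30 were 4.91 ± 0.57 in controls (SD, n = 18), 5.60 ± 0.43 at 7 days, 5.66 ± 0.35 at 14 days and 5.44 ± 0.34 at 21 days (SD, n = 8 each). The gene rose 1.68-fold at 14 days (log2 0.75, limma adjusted p 0.0455). At 7 days the difference was 0.69 with an adjusted p of 0.0526, and at 21 days 0.53 with an adjusted p of 0.387. Over the mean of the 3 HFD times it rose 1.58-fold (log2 0.66, SE 0.14, adjusted p 0.00271).

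The 14-day result for Slc25a30 sat at the threshold. It was lost, with adjusted p-values up to 0.187, without any 1 of 26 arrays: controls 1, 2, 3, 5, 8, 9, 10, 11, 12, 14, 15, 16 and 18, 7-day arrays 4, 5, 7 and 8, 14-day arrays 1, 2, 3, 6, 7 and 8, and 21-day arrays 2, 4 and 7. The 7-day difference passed without control 4, 6, 7 or 17 or 7-day array 2 or 3, with adjusted p-values down to 0.0143. Among 13 other settings of the fit the 14-day difference passed in 4 and the 7-day difference in 3. The mean over the 3 times passed without any 1 of the 42 arrays and under 11 of 12 other settings, the exception being the replicate block (adjusted p 0.0844). In that fit only controls 1 to 8 enter the comparison, since no HFD array carries a higher number.

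**Figure D2:**
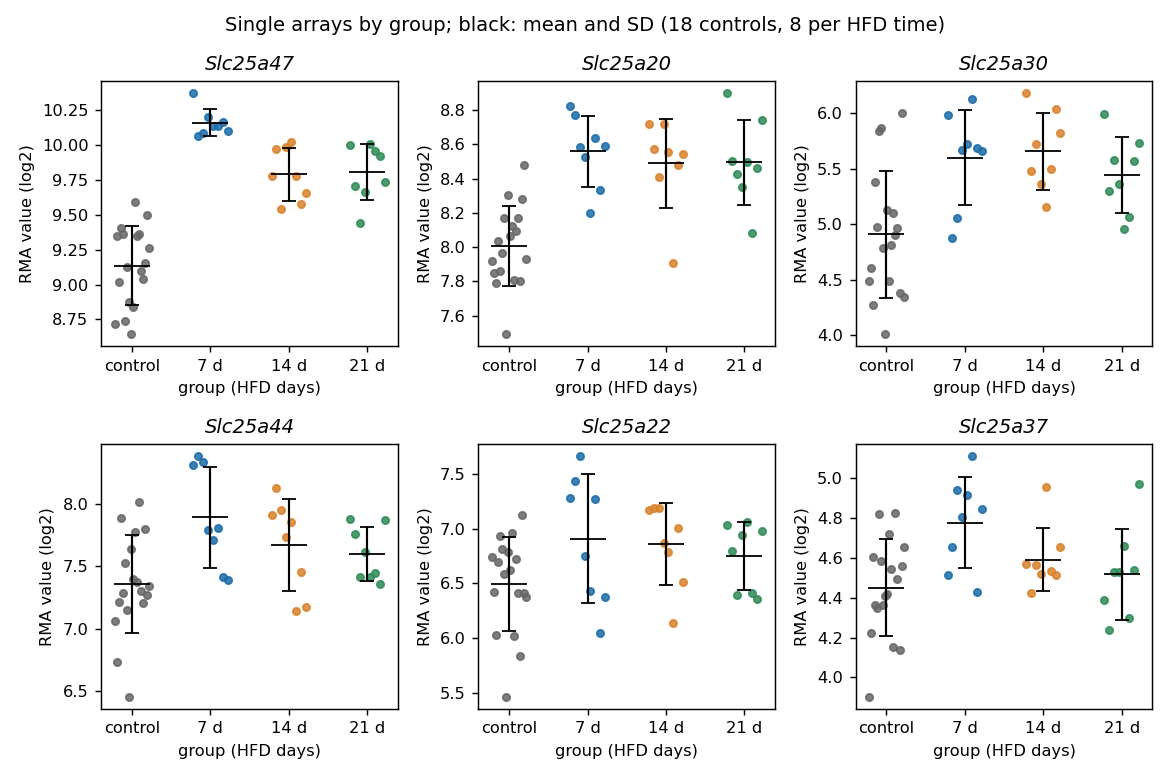
RMA log2 values (vertical axes) of 6 carriers on single arrays by group (horizontal axes; 18 controls, 8 arrays per HFD time); black lines give the mean and SD. Slc25a47 at 7 days lies above every control, Slc25a20 and Slc25a30 overlap with the controls, and Slc25a44, Slc25a22 and Slc25a37 overlap more widely.

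No carrier passed a test among the 3 HFD times. Limma's F test over the HFD groups called 0 of 43 carriers, beside 0.00556% of all genes, and 3 carriers had an unadjusted p under 0.05: Slc25a47 (0.00252), Slc25a27 (0.0178), which encodes the brain uncoupling relative UCP4 and was not above background here, and Slc25a12 (0.0442). In the pairwise comparisons 0 carriers passed as well, beside 0% of all genes for 14 against 7 days, 0.00556% for 21 against 7 days and 0% for 21 against 14 days. At an unadjusted p under 0.05 they held 2 carriers, 4.65% beside 2.51% of all genes, for 14 against 7 days, 4 carriers, 9.30% beside 7.13%, for 21 against 7 days and 0 carriers beside 3.97% for 21 against 14 days.

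Among the 9 measured amino acid carriers 0 passed the test at any time. At the shares of all genes given above, groups this small can hold 0 calls, so such counts do not set a group apart. Slc25a44, which brings branched-chain amino acids into mitochondria, came nearest to passing among the amino acid carriers. Its controls ran from 6.46 through 7.32 to 8.01 and its 7-day arrays from 7.39 through 7.80 to 8.38. All 8 of the 7-day arrays lay above the control mean and 3 above every control. The log2 difference was 0.54 at 7 days (limma adjusted p 0.0514), 0.31 at 14 days (0.798) and 0.24 at 21 days (0.871). At 7 days it passed under 8 of 13 other settings, and without control 4, 9, 11, 13 or 16, 7-day array 7 or 8, or 14-day array 2, 6 or 8 (adjusted p down to 0.0225).

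The Slc25a44 difference at 7 days lay mostly in part of the arrays. Arrays numbered 1 to 4 lay between 7.79 and 8.38 and those numbered 5 to 8 between 7.39 and 7.81. Against all controls the first set differed by 0.85 (adjusted p 0.00672) and the second by 0.22 (adjusted p 0.782). Slc25a22, a carrier that imports glutamate with protons, showed the same split: its 7-day difference was 0.41 (adjusted p 0.421) over all 8 arrays, 0.79 (adjusted p 0.0342) for arrays 1 to 4 and 0.04 (adjusted p 0.979) for arrays 5 to 8. Slc25a47 did not show it, with 1.05 for arrays 1 to 4 and 1.0 for arrays 5 to 8 at 7 days.

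The 2 sets of arrays also stood apart in Malat1, a nuclear non-coding RNA. It lay between 6.60 and 7.01 on 7-day arrays 1 to 4 and between 8.79 and 9.43 on arrays 5 to 8, with no overlap, and the sets were likewise apart at 14 days (5.76 to 7.33 and 8.61 to 9.21) and 21 days (6.20 to 7.41 and 9.15 to 9.57). The labels give no reason for this split, and its part in the values of Slc25a44 and Slc25a22 was not tested beyond these separate fits and a fit with Malat1 as a covariate. In that fit Slc25a44 differed by 0.52 at 7 days (adjusted p 0.00533).

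**Figure D3:**
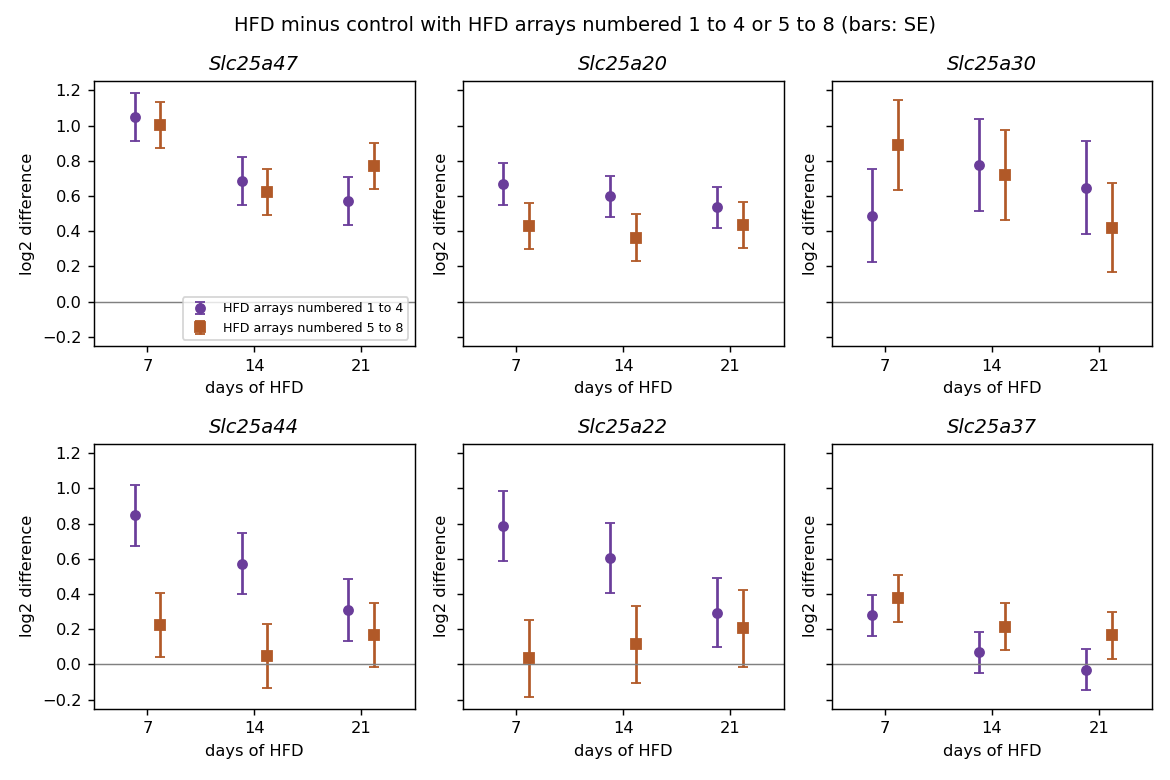
Log2 difference from all 18 controls (vertical axes; bars are standard errors) of 6 carriers at 7, 14 and 21 days of HFD (horizontal axes), for HFD arrays numbered 1 to 4 (circles) and 5 to 8 (squares). Slc25a47 has similar values for both sets at 7 and 14 days, and Slc25a44 and Slc25a22 lie higher for arrays 1 to 4 at those times.

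The carriers of the malate-aspartate shuttle and the urea cycle gave values on both sides of 0. Slc25a13 (citrin), the main aspartate-glutamate carrier of liver, differed by 0.23, 0.16 and 0.08 at 7, 14 and 21 days, and Slc25a12 (aralar), its counterpart in excitable tissue, by 0.10, -0.06 and -0.28; their lowest adjusted p was 0.423. Slc25a15, the ornithine carrier of the urea cycle, differed by -0.14, -0.22 and -0.17, and over the mean of the 3 times by -0.18 with an adjusted p of 0.0690, which passed without control 8 or 14-day array 3 (adjusted p down to 0.0339). Among 12 other settings of the fit the mean over the times passed in 3, with adjusted p-values up to 0.529. All 24 HFD arrays of Slc25a15 lay below its control median of 8.76, and the share of all genes on 1 side in this way was not counted. Slc25a18, the second glutamate carrier, differed by -0.19 at 7 days (adjusted p 0.363), the glycine carrier Slc25a38 by -0.05, -0.19 and -0.01, and the basic amino acid carrier Slc25a29 by 0.02, 0.01 and 0.02.

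Of the 4 measured carboxylate carriers 0 passed at any time. Slc25a1 exports citrate for fatty acid and sterol synthesis and differed by 0.19, 0.11 and 0.13 at 7, 14 and 21 days. Slc25a11, which exchanges oxoglutarate for malate, differed by 0.10, 0.15 and 0.23, the last with an unadjusted p of 0.00623 and an adjusted p of 0.348. Slc25a10, the dicarboxylate carrier, differed by 0.23, 0.17 and 0.18 (mean of the times 0.19, adjusted p 0.548), and Slc25a21, the oxoadipate carrier, by 0.09, -0.11 and -0.04.

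The 7 measured carriers of adenine nucleotides and phosphate also gave 0 calls, and their medians were -0.00, -0.00 and 0.02. Slc25a5, the adenine nucleotide translocase most used by liver, differed by 0.10, 0.07 and -0.02, and its other 2 probe sets gave like values. Slc25a3, which supplies phosphate to ATP synthase, differed by -0.00, 0.01 and 0.03, with 95% limits from -0.15 to 0.18 over the 3 times. Slc25a4, the translocase of heart and muscle, had the lowest value of the family at 21 days, -0.30, but its arrays were spread widely (control SD 0.42) and its adjusted p was 0.858. The calcium-regulated carrier Slc25a24 differed by 0.21, 0.04 and 0.25, with an adjusted p of 0.478 at 7 days and 0.491 at 21 days.

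Cofactor and pyrimidine nucleotide carriers, 7 measured, passed in 0 cases. Slc25a42, which imports coenzyme A, differed by 0.29 at 7 days (adjusted p 0.346), 0.13 at 14 days and 0.22 at 21 days. Slc25a17, a carrier of peroxisomes for coenzyme A and related cofactors, differed the other way, by -0.12, -0.27 and -0.25, with an adjusted p of 0.282 over the mean of the times. Its 21-day arrays 1 to 4 lay between 6.44 and 7.37 and arrays 5 to 8 between 7.40 and 7.69, around a control mean of 7.55. Against all controls the first set differed at 21 days by -0.52 (adjusted p 0.0293) and the second by 0.02 (adjusted p 0.949), so the 21-day value came from arrays 1 to 4. Slc25a51, the NAD+ carrier of mitochondria, differed by -0.05, -0.09 and -0.04, and Slc25a26, for S-adenosylmethionine, by 0.13, 0.10 and 0.11. Slc25a36 had 2 probe sets, neither above background, that differed in sign at 21 days (0.16 and -0.14).

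Among the 3 measured iron and glutathione carriers 0 passed. Slc25a37 (mitoferrin 1) imports iron for haem and iron-sulphur clusters; its control, 7-day, 14-day and 21-day medians were 4.46, 4.83, 4.55 and 4.53. At 7 days 4 of its 8 arrays lay above every control and the difference was 0.33 (adjusted p 0.0751, passing without control 6 or 14 or 7-day array 7 with values down to 0.0304); at 14 and 21 days it was 0.14 and 0.07. Its relative Slc25a28 (mitoferrin 2) differed by -0.09, -0.09 and -0.02 and the glutathione carrier Slc25a40 by 0.06, 0.09 and 0.12. The other measured members of the uncoupling group, Slc25a14 (UCP5) and Slc25a27, had single differences of -0.14 at 14 days and -0.16 at 7 days that did not pass the adjustment (adjusted p 0.802 and 0.434).

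Apart from Slc25a47, 0 of the 8 remaining carriers with an unknown or other role passed. Slc25a48 differed by -0.10, -0.16 and -0.22 (adjusted p at 21 days 0.730), and Slc25a46, an outer membrane protein of mitochondrial fusion and fission, by 0.10, 0.02 and -0.11. In all, 3 carriers passed in at least 1 comparison with control, 15 had only unadjusted p-values under 0.05, and 25 had neither. The differences of those 25 ran from -0.30 to 0.19, and the widest of their 95% limits was 1.57-fold. These counts pool the single times and their mean. The share of all genes under the same pooled rule was not counted, so they list the members and do not set the family apart.

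The carnitine shuttle, in which Slc25a20 works, held other genes that rose. Of 12 listed genes 7 were measured. Of these 3 rose at 7 days, 2 at 14 days and 2 at 21 days, beside 1.16%, 0.506% and 0.445% of all genes. At each time 0 fell, and the medians were 0.38, 0.19 and 0.19. Crat, carnitine acetyltransferase, rose 2.28-fold at 7 days, 1.99-fold at 14 days and 1.84-fold at 21 days (limma adjusted p 3.12e-07, 2.51e-05 and 2.60e-04). Slc22a5, the plasma membrane carnitine transporter OCTN2, rose by 0.56, 0.64 and 0.66 on the log2 scale. Acsl5, an acyl-CoA synthetase, rose at 7 days by 0.41 (adjusted p 0.0456), and Cpt2, which acts next to Slc25a20 on the matrix side, differed by 0.38, 0.50 and 0.40 without passing at any time. The Acsl5 call was lost, with adjusted p up to 0.124, on leaving out any 1 of 24 arrays (most of them control or 7-day arrays), whereas Crat and Slc22a5 passed at each time without any 1 of the 42 arrays. Among the 13 other settings Crat passed at each time in all of them, and Slc22a5 in 11, 12 and 13.

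Enzymes on either side of the malate, aspartate and citrate carriers were measured for 7 of 11 listed genes. Gpd2, the mitochondrial enzyme of the glycerol phosphate shuttle, rose 1.85-fold at 7 days (adjusted p 4.52e-04) and 1.56-fold at 14 days (adjusted p 0.0453) and differed by 0.60 at 21 days (adjusted p 0.0761). Me1, cytosolic malic enzyme, rose 1.75-fold at 7 days (adjusted p 0.0160). Of the urea cycle list, 6 of 7 genes were measured and Arg1, arginase, which makes the ornithine that Slc25a15 takes up, fell by 0.32 at 14 days (adjusted p 0.0373) and by 0.34 at 21 days (adjusted p 0.0146). Over the mean of the 3 times Arg1, Asl and Cps1 fell, Cps1 by 0.39 (adjusted p 0.0108). The calls of these 3 genes over the mean of the times and of Gpd2 at 7 days held without any 1 of the 42 arrays. With HFD arrays 5 to 8 alone none of these 4 calls held (adjusted p 0.298 for Gpd2). With the replicate block, which uses only controls 1 to 8, Arg1, Asl and Cps1 were lost over the mean of the times (adjusted p 0.0647, 0.491 and 0.334). Asl was also lost with controls 1 to 9 and Cps1 with either set of controls. Me1 was lost without 7-day array 1 or 2 (adjusted p up to 0.0730), Arg1 at 21 days without 21-day array 3 (0.0719), and Arg1 and Gpd2 at 14 days without any 1 of 15 and 21 arrays (up to 0.165 and 0.181). Among 13 other settings Me1 at 7 days passed in 9 (adjusted p up to 0.493) and Arg1 at 21 days in 7 (up to 0.251). At 14 days Arg1 passed in 6 of them and Gpd2 in 8 (up to 0.365 and 0.680).

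Transporters of the inner membrane outside the family were measured for 12 of 19 listed genes, and 0 passed at any single time. Over the mean of the 3 times Mpc1, a subunit of the pyruvate carrier, rose by 0.30 (adjusted p 0.0340) and Abcb8 by 0.35 (adjusted p 0.0371). Both lay near the threshold and were lost without any 1 of 14 and 20 arrays, with adjusted p-values up to 0.0711 and 0.0780. Among 12 other settings Mpc1 passed in 6 and Abcb8 in 8 (adjusted p up to 0.460 and 0.604). The import machinery that inserts carriers into the membrane had 18 of 19 genes measured and 0 calls, with medians of 0.12, 0.06 and 0.03, and the 3 outer membrane channels Vdac1, Vdac2 and Vdac3 had 0 calls. Ucp1, Ucp3, Mtch1 and Mtch2, family members whose symbols lie outside the rule, gave 0 calls. Ucp3 lay under background (group means 2.53 to 2.67) and Ucp1 close to it, so their values say little about expression. Of 8 regulators of mitochondrial genes, Ppara, the fatty acid receptor, rose by 0.65 at 7 days (adjusted p 0.00265) and 0.55 at 14 days (adjusted p 0.0360) and differed by 0.34 at 21 days (adjusted p 0.530; the 14-day call was lost without any 1 of 11 arrays, with values up to 0.143, and the 7-day call with HFD arrays 5 to 8 or controls 10 to 18, up to 0.246), while the coactivator Ppargc1a differed by 0.13, 0.17 and -0.01.

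**Figure D4:**
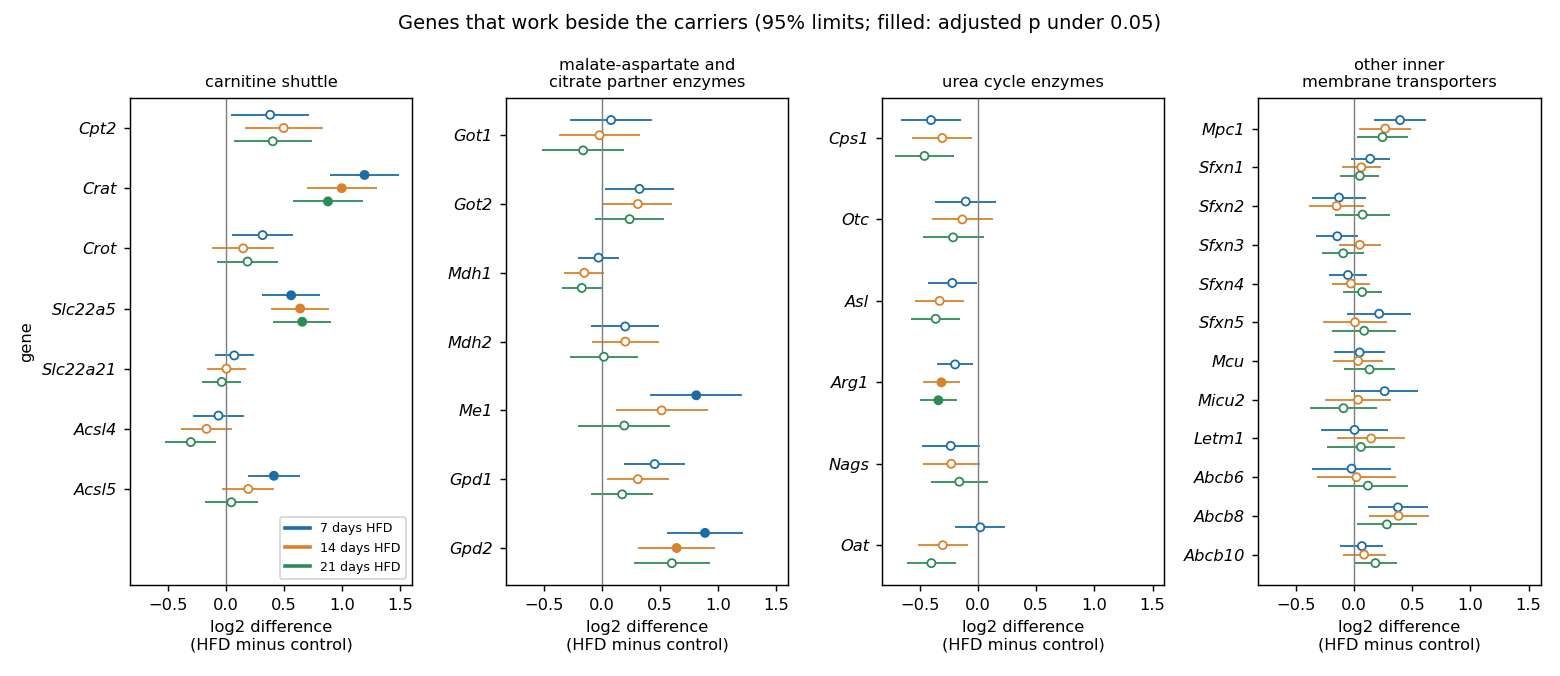
Log2 difference from control (horizontal axes, HFD minus control) with 95% limits for genes of 4 lists (vertical axes) that work beside the carriers, at 7, 14 and 21 days of HFD; filled points have a limma adjusted p under 0.05. Crat and Slc22a5 are filled at all 3 times, Gpd2 at 7 and 14 days, and Arg1 lies below 0 at all times and is filled at 14 and 21 days.

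Markers of other liver cell types were set beside these results. Of 9 macrophage and Kupffer cell markers 3 rose at 7 days (C1qc, Cd68 and Vsig4), beside 1.16% of all genes, and 0 at 14 and 21 days. C1qc was lost without 7-day array 4, 5, 6 or 7 and Vsig4 without 5 or 7 (adjusted p up to 0.0965 and 0.136), and Cd68 held without any 1 array. Among 13 other settings C1qc passed in 10, Cd68 in 10 and Vsig4 in 6 (adjusted p up to 0.345, 0.179 and 0.332). The array means of the 9 markers ran from 4.96 to 5.63 in controls and from 5.56 to 5.85 at 7 days. The part of these markers in the 7-day carrier values was not tested. Acinar markers gave 0 calls in any comparison with control, and their median log2 difference was 0.79, 0.71 and -0.48 at 7, 14 and 21 days. With their mean as a covariate Slc25a47 and Slc25a20 passed at all 3 times. In that fit Slc25a30 passed over the mean of the 3 times and did not pass at 21 days. The part of acinar RNA in the Slc25a30 values was not tested further. Markers of endothelial, stellate and bile duct cells gave 0 calls. Of 5 measured adipocyte markers, Adipoq and Lep, which define adipocytes, had a mean over the 42 arrays under background. Of 5 measured lymphocyte markers, Cd3g, Cd79a and Nkg7 had such a mean under background. The remaining markers of both lists were not under background by that mean, so the lists do not settle whether such cells were present. Ucp1, an adipocyte marker, lay close to background, with means of 2.85 in controls and 2.75, 3.01 and 2.88 at 7, 14 and 21 days. Both lists gave 0 calls in any comparison with control. In whole liver, fewer cells of a type and less RNA per cell cannot be told apart.

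Within the 18 controls, where diet does not enter, the 3 carriers had low correlations with each other. Pearson's r was 0.18 for Slc25a20 with Slc25a47, 0.18 for Slc25a30 with Slc25a47 and 0.24 for Slc25a30 with Slc25a20 (Spearman's rho 0.18, 0.29 and 0.20), with permutation p-values of 0.484, 0.473 and 0.335 for r and 0.478, 0.240 and 0.421 for rho. Without the 2 arrays farthest from the median of the x measure, r was 0.34, 0.12 and -0.02. Of 9 relations computed, including each carrier with Malat1 and with the acinar marker mean, 0 had an adjusted permutation p under 0.05. The lowest permutation p was that of Slc25a20 with Malat1, with r -0.52 (permutation p 0.0286, adjusted 0.251), rho -0.60 (permutation p 0.00893, adjusted 0.0804) and r -0.62 without the 2 farthest arrays. Slc25a30 with the acinar marker mean had the same adjusted value for r (r 0.46, permutation p 0.0558, adjusted 0.251). Its rho was 0.28 (permutation p 0.252, adjusted 0.378), and r was 0.28 without the 2 farthest arrays.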

How the data were processed

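Liver RNA of 42 samples was measured on Affymetrix whole-transcript arrays. Per the submitters' processing notes, the deposited log2 values were made by the authors with RMA in Affymetrix Expression Console 1.1; RMA subtracts background, sets arrays to a common distribution and summarises probes, which compresses low signals. Array scanner files were not used here. The number of arrays and their spread limit the precision. Of 32624 probe sets 19559 had 1 gene symbol in the platform annotation, 1469 had several and the rest none; 1 probe set without values on 33 arrays was left out. The brightest probe set stood for each of 17989 genes.

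Groups were taken from the titles. A fit with the 4 groups (limma 3.58.1, R 4.3.3, lmFit and eBayes) gave each comparison, with Benjamini-Hochberg adjustment over all genes and a threshold of 0.05, 2-sided; it was tested on simulated data. Correlations used 100000 permutations (SciPy 1.17.1). The rule for description named Slc25a47, Slc25a20, Slc25a30 and Ucp2 (the last not analysed here), every carrier with an adjusted or unadjusted p under 0.05 in a comparison with control, and the others by role. The members, roles, gene lists and tests were chosen with earlier results of these data known; the GGGCGG and TATAAA searches were added last. Alternatives were quantile normalization, median centring, leaving out dim genes, array weights, acinar or Malat1 covariates, sets of arrays by number, a replicate block, other fits and each array left out.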

Additional observations from a re-analysis of the deposited data

Results flagged for a closer look

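In 8 of 54 groups examined (each named carrier at each HFD time, 8 arrays), 1 array stood apart from the other 7 by more than Dixon's 95% critical value; chance gives about 1 group in 20. At 14 days the low array of Slc25a13 (9.06), of Slc25a15 (8.19) and of Slc25a20 (7.91) was replicate 6 each time. That array also held the lowest 14-day value of many other carriers, among them Slc25a1, Slc25a10, Slc25a22 and Slc25a44. For some, such as Slc25a4, it held the highest. Its low values are thus not particular to the carriers flagged here, and no share of all genes was counted. Without any 1 array Slc25a20 still passed at 14 days. Slc25a15 also had a low array at 21 days (8.13, replicate 6). The high arrays were those of Slc25a14 at 14 days (3.17, replicate 2), Slc25a37 at 14 days (4.95, replicate 5), Slc25a47 at 7 days (10.4, replicate 1) and Slc25a48 at 7 days (4.75, replicate 3).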

How the results depend on the processing

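Slc25a47 passed under each alternative run at each time, and no single-carrier difference that passed in the reported fit changed sign. A tally for each named carrier and comparison took the other settings. Of the fits with 1 array left out, it took only those with the lowest and highest log2 difference. Of these values 979 kept side and direction, 34 came to pass, 16 no longer passed and 29 uncalled ones changed sign. The causes were not tested. At 7 days, where 2 carriers passed, 4 did so with median centring (Slc25a30 and Slc25a44 added), 4 with dim genes left out (the same additions), 6 with array weights, 5 with Malat1 as covariate, 4 with HFD arrays 1 to 4 and 1 with arrays 5 to 8; leaving out each array gave 2 to 4, with 4 without control 4, control 6 or 7-day array 7. At 14 days, where 3 passed, 1 did so with HFD arrays 5 to 8 and 1 with controls 10 to 18, and leaving out each array gave 2 to 3. At 21 days, where 2 passed, 1 did so with controls 10 to 18, 3 with HFD arrays 1 to 4 (Slc25a17 added, as lower) and 2 with arrays 5 to 8 (Slc25a40 in place of Slc25a20). For the mean of the 3 times, where 3 passed, 5 did so with quantile normalization (Slc25a15 and Slc25a17 added, as lower), 5 with Malat1, 6 with HFD arrays 1 to 4 and 6 with arrays 5 to 8, and 3 to 4 with each array left out. Over all genes the number passing at 7 days ran from 144 to 605 beside 251. Of 26 calls of genes outside the family, 7 held under each alternative run. In the controls, r of Slc25a30 with Slc25a20 was 0.24 and ran from -0.0012 to 0.42 with each array left out.

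Replicate numbers are shared between groups, but the residuals of 48 same-numbered pairs correlated at -0.37 to 0.52 (median 0.08; 22 over 0.1), so the numbers were not taken as pairs. The replicate block gave each number its own term. Numbers above 8 occur only among controls, so that fit compares the HFD arrays with controls 1 to 8 alone. Blocking and the loss of the other controls cannot be told apart in it. With the replicate block 3 carriers passed at 7 days (Slc25a44 added), 2 at 14 days, 2 at 21 days and 4 over the mean of the times, where Slc25a30 had an adjusted p of 0.0844. Carriers below background, and family genes without a usable probe set, cannot be judged.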
